A study of Mus musculus with 5 samples.

Results

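The proteasome subunit genes of neural stem and precursor cells from the mouse subventricular zone were described in 5 RNA-seq libraries. The genes were chosen by symbol (Psm, a letter from a to g, and a number), which named 48 of the 46078 genes in the tables of each library. All 48 are annotated as protein coding. Transcripts of these genes made up between 0.835% and 0.997% of all transcripts in a library, measured as TPM (a share of transcripts corrected for gene length, so that genes can be compared within a library). The cells came from the wall of the lateral ventricles, a niche of adult neural stem cells, and the study used them as negative controls beside astrocytes derived from embryonic stem cells. Libraries of cells exposed to hydrogen peroxide were not analysed here.

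Both groups held C57BL/6 cells with no mutation, labelled as female and 5 to 8 weeks old (the study's methods give C57BL/6j females of an older age), which were grown as spheres with EGF and FGF, plated on poly-D-lysine (PDL) and given PBS as a sham exposure. RNA was taken 1 h later in 2 libraries (replicates 1 and 2) and 8 h later in 3 libraries (replicates 13, 14 and 15), which the study calls biological replicates. The library identifiers fall into 2 number series, whose meaning the sources used here do not state. Series 1 holds both 1 h libraries and 8 h replicate 14, and series 2 holds 8 h replicates 13 and 15. Cultured spheres are a mixture of cells, and in bulk RNA fewer cells of a type and less RNA per cell cannot be told apart. All 8 listed neural stem and precursor markers had a mean of at least 1 TPM, Fabp7 and Vim being the most abundant, and so had all 7 oligodendrocyte lineage and 4 neuronal markers. None (0) of 7 microglial markers reached that mean, and Aif1 and Tmem119 were listed at 0 in every library. Of the 5 endothelial markers Flt1 (mean 11.8 TPM) and Kdr (mean 1.57 TPM) reached it. Pecam1 did not, and Cdh5 and Cldn5 were listed at 0 in every library.

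Some libraries went against their labels. Xist, transcribed from the inactive X chromosome of female cells, was at 165.3 and 199.7 TPM in 8 h replicates 13 and 15 and at most at 0.0611 TPM in the other 3 libraries. The summed TPM of 4 Y-linked genes was between 137.6 and 180.9 in those 3 libraries and at most 0.0253 in series 2. Those 3 libraries, all of series 1, carry the label female. In the count table, whose columns summed to between 13988166 and 18572154 reads over the 7599 genes it lists here, each column was set against the TPM tables by its log2 ratio to 1 h replicate 1 in both sources, median-centred. The 1 h columns, taken relative to each other, met their tables within 0.1 for 78.0% of 7190 genes. By the same measure, 8 h column 13 met its own table at 25.8% of genes but that of replicate 14 at 78.3%, and 8 h column 15 met the table of replicate 13 at 76.7%. For 8 h column 14 the best match among the 4 tables other than that reference reached 37.5%. Which source carries the intended labels was not tested. The values per library below are those of the TPM tables under their own labels, on which every reading by replicate or series rests, and the counts are given by column name.

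The 26S proteasome degrades proteins tagged with ubiquitin. Its 20S core is a barrel of outer alpha rings and inner beta rings, and 3 of the beta subunits cut peptide bonds. The 19S regulatory particle caps the barrel, where a lid removes ubiquitin and a base holding a ring of ATPases unfolds the substrate and feeds it in. Interferon-induced beta subunits replace the catalytic ones in the immunoproteasome, and other activators can take the place of the 19S particle. Dividing cells such as neural precursors depend on this pathway to clear cell cycle regulators and damaged proteins.

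Promoter sequences were taken from RefSeq (GRCm38.p6), which held 43 promoters for 40 of the 48 genes, and the 250 bases before each start site were searched on both strands for 5 motifs. The core of the antioxidant response element, TGACNNNGC, was in 11.6% of these promoters and 10.2% of all 32851 promoters. The CCAAT box, letters CCAAT, was in 32.6% and 33.8%, and the interferon-response core (GAAA, 2 free bases and GAAA again) in 6.98% and 2.98%. The core read by ETS factors, CCGGAAG, was in 30.2% against 6.91%. The site of nuclear respiratory factor 1 (GCGC, 1 free base and TGCGC) was in 14.0% against 3.74%. That factor is not the product of Nfe2l1, a gene read further below. No pair of different motifs overlapped in these promoters (0 overlaps). The median GC content of the windows was 57.6% for the proteasome genes and 52.4% for all promoters. Promoters holding the ETS core belonged to 12 genes, 8 of them of the 19S particle (Psmc1, Psmc2, Psmc6, Psmd2, Psmd4, Psmd6, Psmd11 and Psmd12). Windows of 100 bases are shown for 7 genes, ending just before the start site (in Psmc1 and Psme2 16 and 12 bases further upstream, where the tables start the gene), chosen because the values below return to them, with a motif in capitals where the window holds one. A match is a description of these letters only. Psmb5 and Psmb6 encode catalytic subunits and hold the antioxidant core, Psmc1, Psmd2 and Psmd11 encode 19S subunits and hold the ETS core (read here as CTTCCGG), and Psme2 and Psme3 encode activators, Psme3 with a CCAAT box (read here as ATTGG) and Psme2 with none of the 5. Psme3 also holds an ETS core and Psmc1 a CCAAT box further upstream than the windows reach.
Psmb5, chr14:54617996-54618095, minus strand: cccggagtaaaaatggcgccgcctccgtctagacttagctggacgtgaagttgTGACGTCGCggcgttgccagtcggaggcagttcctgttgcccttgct
Psmb6, chr11:70525257-70525356, plus strand: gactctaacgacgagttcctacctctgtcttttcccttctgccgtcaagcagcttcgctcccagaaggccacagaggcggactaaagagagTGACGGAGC
Psmc1, chr12:100110086-100110185, plus strand: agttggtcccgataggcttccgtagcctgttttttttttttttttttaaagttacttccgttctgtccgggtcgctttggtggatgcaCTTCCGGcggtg
Psmd2, chr16:20651552-20651651, plus strand: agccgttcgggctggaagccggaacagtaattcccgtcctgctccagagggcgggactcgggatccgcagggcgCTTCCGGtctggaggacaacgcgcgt
Psmd11, chr11:80428515-80428614, plus strand: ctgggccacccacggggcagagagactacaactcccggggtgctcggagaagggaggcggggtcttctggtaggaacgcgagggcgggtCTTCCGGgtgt
Psme2, chr14:55591114-55591213, minus strand: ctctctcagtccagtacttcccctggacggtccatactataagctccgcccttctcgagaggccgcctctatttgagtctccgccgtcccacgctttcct
Psme3, chr11:101316113-101316212, plus strand: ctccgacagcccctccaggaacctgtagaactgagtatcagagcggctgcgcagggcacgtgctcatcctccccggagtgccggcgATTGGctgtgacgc

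The 31 constitutive genes of the core and the 19S particle were all abundant. Their mean TPM over the 5 libraries ran from 111 for Psmd13 to 519 for Psmb6, which placed them between the 88.8th and the 98.3rd percentile of the 13870 genes with a mean of at least 1 TPM. The 7 alpha genes had means between 195 and 402 TPM and the 7 beta genes between 278 and 519 TPM. The 6 base ATPase genes ranged from 204 to 353 TPM, the 3 other base genes from 160 to 367 TPM and the 8 lid genes from 111 to 283 TPM. Levels within each of these classes thus differed by a factor of 2.55 or less. Most of the remaining genes were lower. The 4 activators had means from 31.2 TPM to 153 TPM (Psme3, above the lid genes Psmd11 and Psmd13), the 7 assembly chaperones from 29.9 to 54.4 TPM and the inhibitor gene Psmf1 had 23.0 TPM. The immunoproteasome genes ranged from 0.439 TPM for Psmb8 to 23.6 TPM for Psmb10, and the 2 core genes restricted to other tissues were at or near 0. The ratio of the highest to the lowest library had a median of 1.27 over the 44 genes with a mean of at least 1 TPM, beside 1.45 over all 13870 genes.

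**Figure D1:**
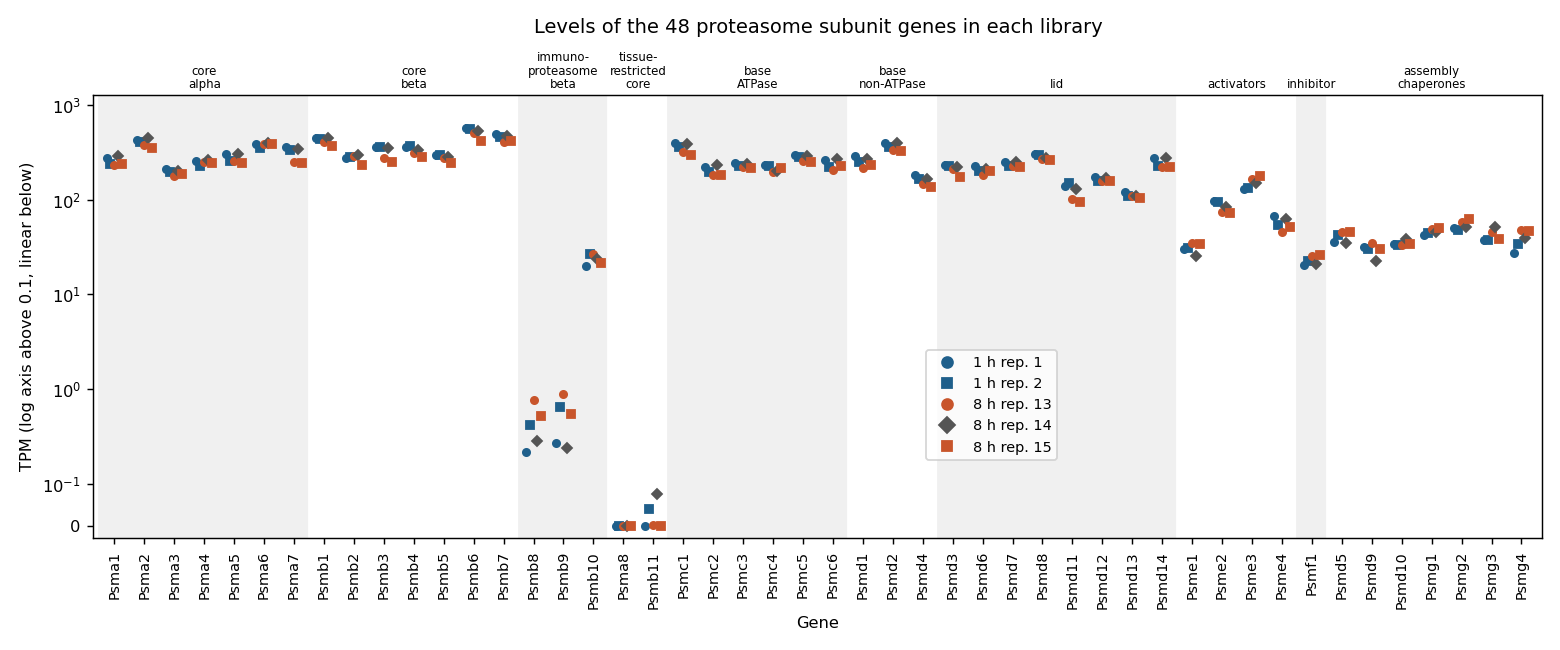
Level of each of the 48 genes (x axis, grouped by class) in TPM (y axis, logarithmic above 0.1 and linear below), with 1 point per library. The 31 constitutive core and 19S genes lie together at mean levels of 111 to 519 TPM, while Psmb8 and Psmb9 stay below 1 TPM and Psma8 and Psmb11 near 0.

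Across 8 h against 1 h, no proteasome subunit gene passed the test. The classes of the degrading machine itself were lower on average at 8 h, and these averages were shaped by 8 h replicates 13 and 15. The assembly chaperones were higher on average, in replicate 14 as well, though most in replicates 13 and 15. The summed TPM of the beta class was 2828 and 2781 in 1 h replicates 1 and 2, and 2483, 2734 and 2224 in 8 h replicates 13, 14 and 15. All 3 of its 8 h sums were below both 1 h sums, with replicate 14 the nearest to them. The alpha class summed to 2239 and 2017 TPM at 1 h, and to 1937, 2257 and 1898 TPM at 8 h. Here replicate 14 was the highest of all 5 libraries and the other 8 h libraries were the lowest.

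The base ATPases summed to 1660 and 1523 TPM at 1 h, and to 1385, 1624 and 1395 TPM at 8 h. The other base genes summed to 877 and 778 TPM at 1 h, and to 701, 844 and 698 TPM at 8 h. The lid summed to 1736 and 1596 TPM at 1 h, and to 1491, 1653 and 1445 TPM at 8 h. In all 3 classes replicate 14 lay between the 1 h libraries, and replicates 13 and 15 lay below every library of series 1. The 8 h mean was lower by 0.07 (alpha), 0.18 (beta), 0.12 (base ATPases), 0.15 (other base genes) and 0.12 (lid) on the log2 scale. The assembly chaperones summed to 260 and 270 TPM at 1 h, and to 315, 286 and 308 TPM at 8 h. Each of their 8 h sums was above both 1 h sums, with a mean higher by 0.20 on the log2 scale. Over all genes tested the median log2 fold change was 0.10. Of those genes 23.7% were higher and 9.43% lower in every 8 h library. Class sums were not tested, since 2 against 3 libraries allow no two-sided exact permutation p below 0.2.

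**Figure D2:**
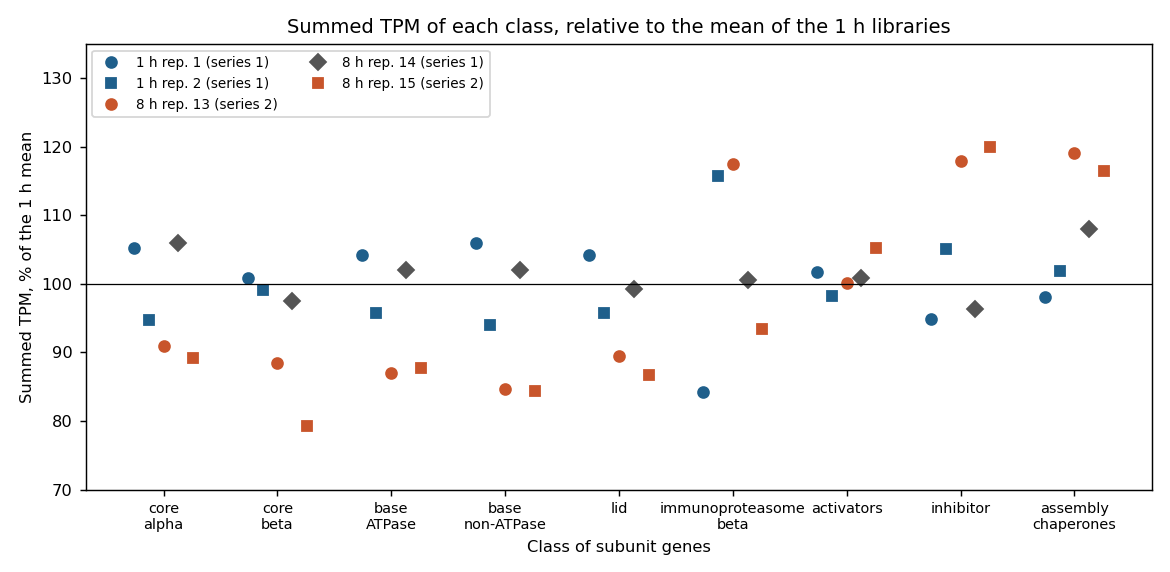
Summed TPM of each class of proteasome subunit genes in each library, as a percentage of the mean of the 1 h libraries (y axis), with 1 point per library. In the alpha, beta, base and lid classes 8 h replicates 13 and 15 lie below all 3 libraries of series 1, and in the assembly chaperones all 3 libraries at 8 h lie above those at 1 h.

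The fit across all genes, by limma on log2(TPM + 1), called 0 of the 44 genes tested when a call needed a Benjamini-Hochberg adjusted p of 0.05 or less and a log2 fold change beyond 1 in either direction. In the same fit 6 of 13870 genes (0.0433%) were called. At an unadjusted p under 0.05, 2 of the 44 were higher and 2 lower, while 9.52% of all genes were higher and 2.82% lower. The point estimates of 32 of the 44 were below 0, as were those of 34.1% of all genes. The median log2 fold change was -0.10 over the 44 genes and 0.10 over all genes tested. Of the 31 constitutive core and 19S genes 29 had an estimate below 0, with a median of -0.12, and the exceptions were Psma4 (0.07) and Psma6 (0.07). All 3 8 h libraries were below both 1 h libraries for 9 of the 44 genes (20.5%, background 9.43%) and above them for 5 (11.4%, background 23.7%). The lower genes were Psmb3, Psmb4, Psmb5, Psmb6, Psmc4, Psmd3, Psmd8, Psmd11 and Psme2, and the higher ones Psme3, Psmg1, Psmg2, Psmg3 and Psmg4.

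The same genes were also read by identifier series, because the groups and the series overlap in part. Both libraries of series 2 were below all 3 of series 1 for 26 of the 44 genes (59.1%), beside 13.5% of all genes, and above them for 7, beside 39.8%. Relative to the 1 h mean, the 31 core and 19S genes had a median log2 ratio of 0.06 and -0.06 in 1 h replicates 1 and 2, and of -0.17, 0.01 and -0.21 in 8 h replicates 13, 14 and 15. The 8 h library of series 1 was thus at the level of the 1 h libraries. Series 2 holds no 1 h library, so a fit with the series as a term compares 8 h replicate 14 alone with the 1 h libraries. In that fit 25 of the 44 genes and 17 of the 31 core and 19S genes had an estimate above 0, beside 52.7% of all genes. The median of the 44 was then 0.02, beside 0.01 over all genes, and 0 were called, beside 19 of all 13870 genes (0.137%). The share of TPM from genes of the mitochondrial genome moved with the series. It was 10.7 to 11.1% in series 1, and 6.23 and 6.30% in series 2. Xist and the Y-linked genes given above split the libraries by the same series. The part of either in the values was not tested. Marker sums also moved. The neural stem and precursor list summed to 11199 to 11715 TPM at 1 h and 11209 to 14374 TPM at 8 h. Of its genes Pax6 and Slc1a3 were higher in every 8 h library, and the others overlapped between groups. The oligodendrocyte lineage list summed to 2007 to 2417 and 1751 to 2575 TPM. In that list Cnp and Mbp were lower in every 8 h library, and the others overlapped. The neuronal list summed to 59.1 to 60.1 TPM at 1 h and 39.8 to 54.5 TPM at 8 h. In that list Tubb3 alone was lower in every 8 h library, and Snap25, Dcx and Rbfox3 overlapped. Snap25 had a higher mean at 8 h (13.2 TPM) than at 1 h (10.5 TPM). The ependymal list, in which 1 of 4 genes had a mean of at least 1 TPM (Foxj1), summed to 23.7 to 27.5 and 16.3 to 18.8 TPM. The endothelial list (2 of 5 such genes) summed to 12.1 to 15.4 and 11.8 to 14.3 TPM, and the microglial list (0 of 7) to 1.31 to 1.53 and 0.478 to 0.759 TPM. The part of these lists in the values was not tested. Without 8 h replicate 14, 6 of the 44 genes passed an adjusted p of 0.05 in limma when no fold change was required (background 19.9%), and 11 were lower and 3 higher at an unadjusted p under 0.05 (background 8.46% and 28.9%). Time and identifier series cannot be told apart in that fit, since the 8 h libraries left are both of series 2. A comparison of times within series 1 rests on 1 library at 8 h, and within series 2 there is no 1 h library.

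**Figure D3:**
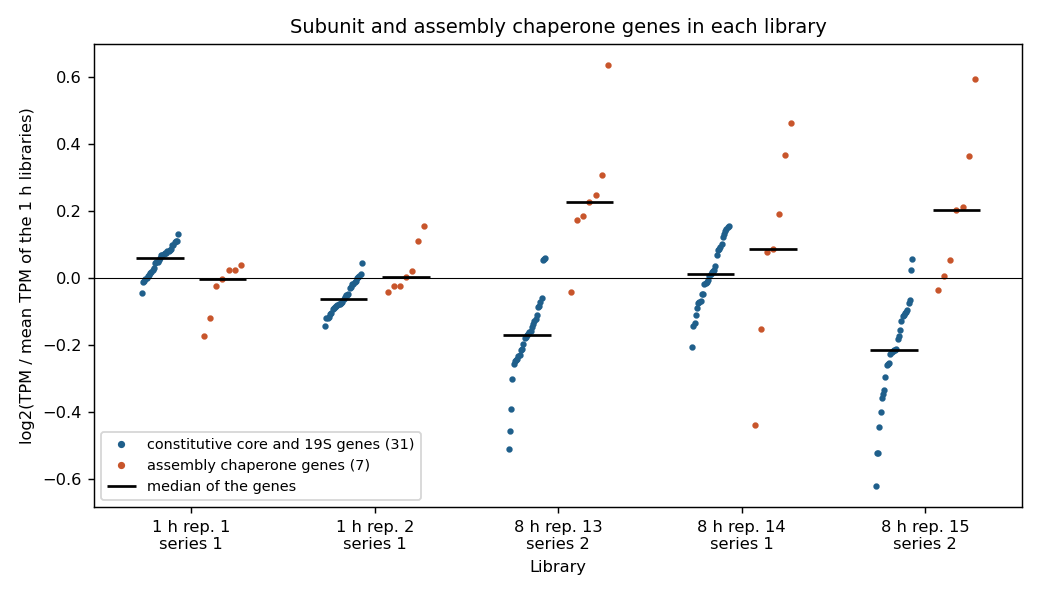
Log2 ratio of each gene's TPM to its mean in the 1 h libraries (y axis), for the 31 constitutive core and 19S genes and the 7 assembly chaperone genes in each library (x axis); bars are medians. The core and 19S median is -0.17 and -0.21 in the 2 libraries of series 2 and 0.01 in 8 h replicate 14.

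Among the alpha genes, which build the gate of the core, Psma2 was the most abundant and Psma3 the least. Psma2 was at 433 and 405 TPM at 1 h, and at 376, 447 and 350 TPM at 8 h. Psma3 was at 210 and 197 TPM at 1 h, and at 180, 201 and 188 TPM at 8 h. Psma7, the alpha gene with the lowest estimate, was at 364 and 334 TPM at 1 h, and at 254, 347 and 243 TPM at 8 h. The 8 h libraries of series 2 were the lowest for all 3 genes, and 8 h replicate 14 lay above at least one 1 h library. The estimate for Psma7 was -0.32 ± 0.17 (log2 fold change ± SE, adjusted p = 0.451), and -0.0046 once the series entered the fit. Its share of the alpha sum was 16.2% and 16.5% at 1 h, and 13.1%, 15.4% and 12.8% at 8 h. Psma6 took a larger share in the same libraries, from 17.6% and 17.5% at 1 h to 20.04%, 17.8% and 20.5% at 8 h. The other alpha genes (Psma1, Psma4 and Psma5) had means from 247 to 275 TPM.

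The beta class holds the 3 catalytic genes. Psmb6, which encodes the caspase-like subunit, was at 576 and 556 TPM at 1 h, and at 506, 538 and 416 TPM at 8 h. Psmb7, encoding the trypsin-like subunit, was at 498 and 465 TPM at 1 h, and at 407, 476 and 415 TPM at 8 h. Psmb5, encoding the chymotrypsin-like subunit, was at 299 TPM in both 1 h libraries, and at 277, 281 and 244 TPM at 8 h. Psmb5 and Psmb6 were lower in all 3 8 h libraries, while Psmb7 overlapped between groups through replicate 14. Of the other genes with the antioxidant core, Psmc6, Psmd9 and Psmd12, each overlapped between groups. Their estimates were -0.16 ± 0.10, -0.23 ± 0.13 and -0.16 ± 0.11 for Psmb5, Psmb6 and Psmb7, with adjusted p between 0.476 and 0.520 in limma. Once the series entered the fit they were -0.090, -0.074 and -0.014.

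Of the structural beta genes, Psmb3 was at 362 and 364 TPM at 1 h, and at 277, 352 and 253 TPM at 8 h. Psmb4 was at 365 and 369 TPM at 1 h, and at 313, 340 and 287 TPM at 8 h. Both were lower in every 8 h library, with replicate 14 nearest to the 1 h level. Their estimates were -0.32 ± 0.15 for Psmb3 and -0.23 ± 0.10 for Psmb4, with an adjusted p of 0.425 and 0.417 in limma, and -0.047 and -0.11 once the series entered the fit. Psmb2, the beta gene with the lowest mean, was at 278 and 283 TPM at 1 h, and at 293, 298 and 236 TPM at 8 h, and its groups overlapped. Psmb1 had a mean of 425 TPM and an estimate of -0.12.

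Of the 3 immunoproteasome genes, 1 had a mean of at least 1 TPM. Psmb10, which encodes the counterpart of the Psmb7 product and lay at the 52.6th percentile of the expressed genes, was at 19.7 and 26.7 TPM at 1 h, and at 26.5, 23.6 and 21.4 TPM at 8 h. Its groups overlapped, and its estimate was 0.05 ± 0.17 (limma, adjusted p = 0.905). Psmb8, the counterpart of Psmb5, was at 0.218 and 0.412 TPM at 1 h, and at 0.771, 0.280 and 0.516 TPM at 8 h. Psmb9, the counterpart of Psmb6, was at 0.270 and 0.642 TPM at 1 h, and at 0.892, 0.238 and 0.540 TPM at 8 h. Both stayed below 1 TPM in every library. They entered only the fit with no filter on low values, which called 0 of 47 genes of the family and 0 of 23583 genes in all. Within libraries, Psmb8 was at 0.0730 to 0.278% of Psmb5, Psmb9 at 0.0443 to 0.176% of Psmb6, and Psmb10 at 3.97 to 6.53% of Psmb7. Psma8, an alpha gene of testis, was listed at 0 in all 5 libraries. Psmb11, the beta gene of thymic epithelium, was at 0 and 0.0401 TPM at 1 h, and at 0.00142, 0.0748 and 0 TPM at 8 h.

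In the base, Psmc1 was the most abundant of the ATPase genes and Psmc2 the least. Psmc1 was at 400 and 360 TPM at 1 h, and at 318, 387 and 299 TPM at 8 h. Psmc2 was at 224 and 199 TPM at 1 h, and at 182, 233 and 181 TPM at 8 h. For both, replicates 13 and 15 were the lowest libraries and replicate 14 lay within or above the 1 h libraries. Psmc4 was the ATPase gene whose groups did not overlap, with 231 ± 2.45 TPM (SD, n = 2) at 1 h and 206 ± 11.2 TPM (SD, n = 3) at 8 h and an estimate of -0.16 ± 0.09 (limma, adjusted p = 0.465). Psmd2, a scaffold of the base, was at 404 and 364 TPM at 1 h, and at 335, 403 and 328 TPM at 8 h. Psmd4, encoding a ubiquitin receptor, was at 182 and 165 TPM at 1 h, and at 146, 168 and 138 TPM at 8 h. Both overlapped between groups through replicate 14, and the estimates of the 9 base genes ran from -0.21 for Psmd4 to -0.05 for Psmc3.

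In the lid, Psmd8 was the most abundant gene, at 305 and 297 TPM at 1 h, and at 272, 275 and 267 TPM at 8 h. Psmd13, the least abundant, was at 121 and 110 TPM at 1 h, and at 109, 110 and 104 TPM at 8 h. Psmd8 was lower in every 8 h library, replicate 14 included, with an estimate of -0.15 ± 0.08 (limma, adjusted p = 0.463). Psmd11, which encodes a structural lid subunit, had the lowest estimate of all 44 genes. It was at 140 and 149 TPM at 1 h, and at 101.7, 131 and 94.1 TPM at 8 h. Its groups did not overlap, and the estimate was -0.42 ± 0.16 (limma, adjusted p = 0.388, unadjusted p = 0.0369). Once the identifier series entered the fit it was -0.14. Psmd14, encoding the enzyme that removes ubiquitin chains, averaged 251 ± 33.7 TPM (SD, n = 2) at 1 h and 241 ± 33.1 TPM (SD, n = 3) at 8 h, and its groups overlapped.

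The activators differed from each other in direction. Psme3, encoding the nuclear activator PA28 gamma, was at 132 and 134 TPM at 1 h, and at 165, 152 and 180 TPM at 8 h. Psme2, encoding the beta subunit of the cytosolic PA28, was at 96.8 and 95.8 TPM at 1 h, and at 74.5, 84.0 and 72.1 TPM at 8 h. Every 8 h library was above the 1 h libraries for Psme3 and below them for Psme2. Psme2 has a near-identical copy, Psme2b, which had a mean of 4.48 TPM, and how shared reads were divided between them is uncertain. The estimates were 0.32 ± 0.10 for Psme3 (limma, unadjusted p = 0.0233) and -0.32 ± 0.10 for Psme2 (unadjusted p = 0.0207), with an adjusted p of 0.369 for both. With the series as a term they were 0.19 and -0.19. The share of Psme3 in the activator sum was 40.4% and 42.4% at 1 h, and 51.5%, 47.0% and 53.4% at 8 h, and that of Psme2 went from 29.6% and 30.4% to 23.2%, 25.9% and 21.4%.

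Psme1, the alpha subunit that assembles with the Psme2 product, was at 30.5 and 31.1 TPM at 1 h, and at 35.1, 25.5 and 33.8 TPM at 8 h. It was at 31.5 and 32.5% of Psme2 at 1 h, and at 47.1, 30.3 and 46.9% at 8 h, so that series 2 stood apart. Psme4, encoding the activator PA200, was at 67.4 and 54.8 TPM at 1 h, and at 46.3, 62.3 and 51.4 TPM at 8 h. Psmf1, encoding the inhibitor PI31, was at 20.4 and 22.7 TPM at 1 h, and at 25.4, 20.7 and 25.8 TPM at 8 h. All 3 overlapped between groups, with estimates of 0.02 for Psme1, -0.20 for Psme4 and 0.14 for Psmf1. The activator class as a whole summed to 327 and 315 TPM at 1 h, and to 321, 324 and 338 TPM at 8 h.

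**Figure D4:**
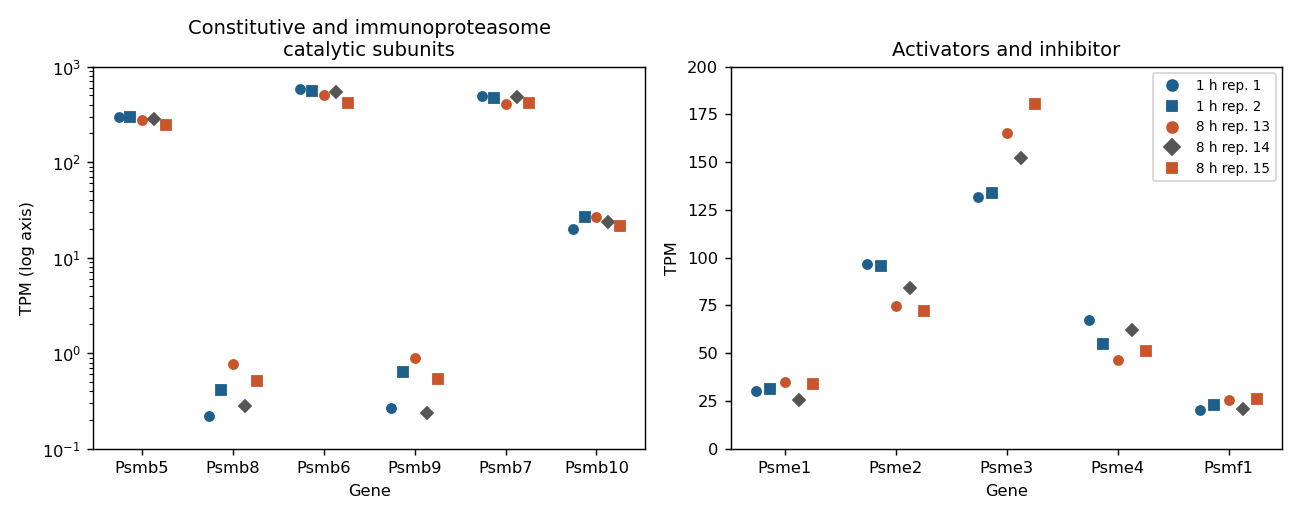
Left, TPM (logarithmic axis) of the constitutive catalytic genes beside their immunoproteasome counterparts; right, TPM (linear axis) of the activators and the inhibitor, with 1 point per library. Psme3 is higher and Psme2 lower in all 3 8 h libraries, and Psmb10 is the only immunoproteasome gene above 1 TPM.

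Of the 7 assembly chaperone genes 6 had an estimate above 0, beside 65.9% of all genes, with a median log2 fold change of 0.15 beside 0.10 over all genes. Under median-ratio scaling 4 were above 0 and 3 below, with a median of 0.040, beside 6805 above and 7053 below of all genes. Psmg1 to Psmg4 encode the chaperones that pair up to build the core. Psmg4 had the highest estimate of all 44 genes, and was at 27.5 and 34.5 TPM at 1 h, and at 48.1, 40.0 and 46.8 TPM at 8 h. Psmg3, its partner, was at 37.2 and 37.3 TPM at 1 h, and at 46.1, 51.3 and 38.7 TPM at 8 h. For both genes every 8 h library was above the 1 h libraries, and the highest 8 h library was replicate 13 for Psmg4 and replicate 14 for Psmg3. The estimate was 0.53 ± 0.15 for Psmg4 (limma, adjusted p = 0.315, unadjusted p = 0.0112) and 0.27 ± 0.14 for Psmg3 (adjusted p = 0.448). Once the identifier series entered the fit they were 0.37 and 0.45.

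Psmg1 was at 42.8 and 44.2 TPM at 1 h, and at 49.5, 45.9 and 50.1 TPM at 8 h. Psmg2, the most abundant chaperone gene, was at 50.5 and 47.7 TPM at 1 h, and at 58.3, 52.2 and 63.3 TPM at 8 h. Both were higher in every 8 h library and highest in series 2, with estimates of 0.15 ± 0.10 and 0.23 ± 0.12 (limma, adjusted p = 0.495 and 0.441), and of 0.076 and 0.085 once the series entered the fit. The chaperones of the base behaved less evenly. Psmd9, the least abundant, was at 31.4 and 30.4 TPM at 1 h, and at 34.8, 22.8 and 30.1 TPM at 8 h, where replicate 14 was the lowest library. Its estimate was -0.10, and those of Psmd5 and Psmd10 were 0.10 and 0.05.

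**Figure D5:**
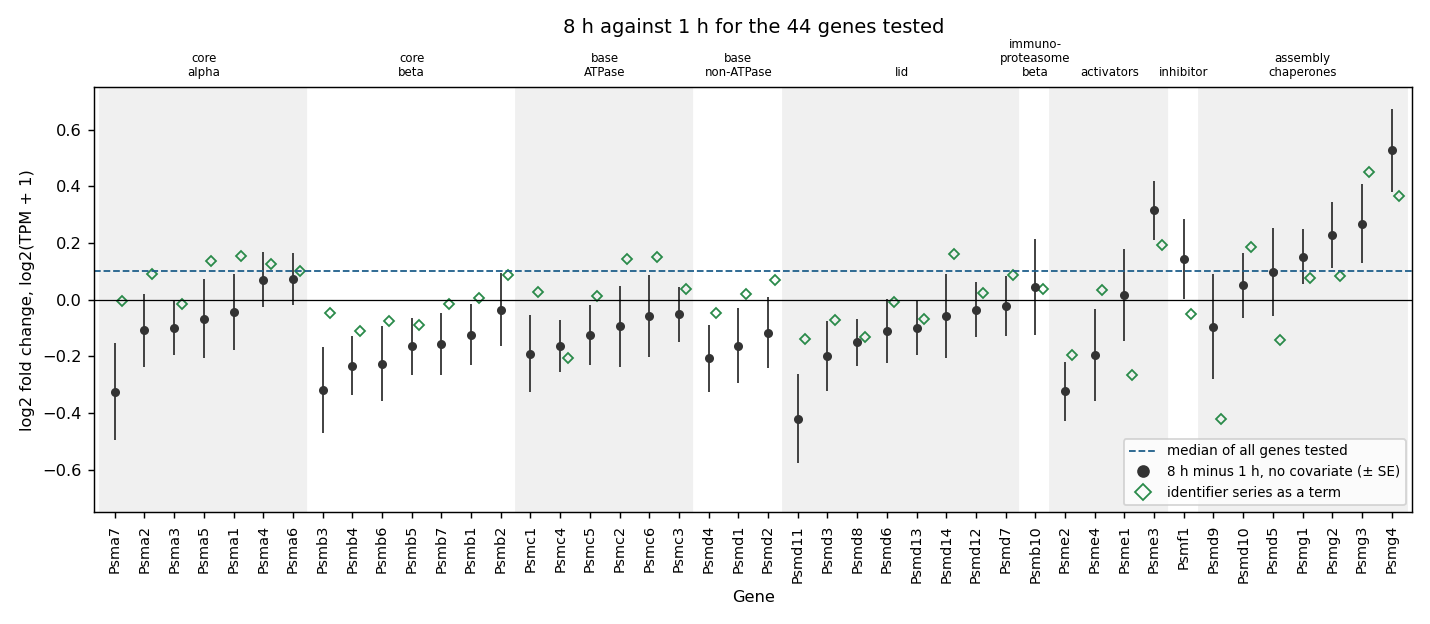
Log2 fold change of 8 h against 1 h on the log2(TPM + 1) scale (y axis) for the 44 genes tested, ordered within each class; filled points are the fit with no covariate with SE bars, open diamonds the fit with the identifier series as a term, and the dashed line the median of all genes tested (0.10). The filled points run from -0.42 for Psmd11 to 0.53 for Psmg4, and most diamonds of the core and 19S genes lie nearer to 0. The diamonds compare 8 h replicate 14 alone with the 1 h libraries.

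In the count table, 32 of the 48 genes were listed. edgeR's quasi-likelihood test called 0 of them and 0 of all 7590 genes tested (background 0%). At an unadjusted p under 0.05 it found 0 of the 32, beside 1.33% of all genes lower and 1.29% higher, and DESeq2 and limma-voom also called 0 of the 32. The estimates of 26 of the 32 were below 0, as were those of 48.3% of all genes, with a median of -0.09. The lowest was Psma7 at -0.25 ± 0.17 (edgeR, adjusted p = 0.966). Its normalised count was 300 and 283 CPM (counts scaled to the column total) in the 1 h columns, and 290, 266 and 196 CPM in the columns named 8 h replicates 13, 14 and 15. The column named replicate 15 was the lowest for Psma7. Without it 20 of the 32 estimates were above 0, beside 3961 of all 7581 genes. The median was then 0.01, beside 0.0076 over all genes. Of the genes whose groups did not overlap on TPM, Psmb4, Psmb5, Psmb6, Psmc4, Psmd3, Psmd11, Psmg1 and Psmg3 overlapped in CPM. The 8 h groups of TPM and CPM need not hold the same libraries. Among the matches tried, the column named 14 met no TPM table at more than 37.5% of genes. No column met the TPM table of replicate 15 at more than 40.7%. Psmb5 was at 142 and 143 CPM in the 1 h columns, and at 131, 155 and 120 CPM in the 8 h columns. Psmg2 stayed higher, at 38.5 and 37.0 CPM in the 1 h columns, and at 39.4, 43.7 and 41.2 CPM in the 8 h columns. Psmb3, Psmd8, Psme2, Psme3 and Psmg4 were not listed in the count table used here.

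Genes that work with the proteasome were read from the same fit on TPM. Of 40 such genes tested, 0 were called, beside 0.0433% of all genes. Estimates were above 0 for 20 and below 0 for 20, while those of 65.9% of all genes were above 0. The median was 0.01, beside 0.10 over all genes. At an unadjusted p under 0.05 in limma, 5 were higher and 3 lower, beside 9.52% and 2.82% of all genes. Nfe2l2, which encodes the antioxidant regulator Nrf2, was at 95.3 and 86.6 TPM at 1 h, and at 141, 132 and 141 TPM at 8 h. Every 8 h library was above both 1 h libraries, and replicate 14 was close to the other 8 h libraries. The estimate was 0.60 ± 0.10 (limma, adjusted p = 0.240), and 0.53 with the series as a term. Nfe2l1, whose product drives subunit transcription when the proteasome is impaired, was at 54.8 ± 5.90 TPM (SD, n = 2) at 1 h and 53.1 ± 3.48 TPM (SD, n = 3) at 8 h. Mafk, encoding a small Maf protein that pairs with both factors, was at 7.83 and 7.45 TPM at 1 h, and at 3.35, 3.14 and 3.94 TPM at 8 h. Its groups did not overlap, and its estimate was -0.95 ± 0.16 (limma, adjusted p = 0.240), and -1.06 with the series as a term.

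Of the subunit genes named otherwise, Adrm1, encoding a ubiquitin receptor of the base, was at 111 and 98.8 TPM at 1 h, and at 82.0, 82.4 and 86.4 TPM at 8 h. It was lower in every 8 h library, with an estimate of -0.32 ± 0.10 (limma, adjusted p = 0.345) that was -0.34 with the series as a term. Shfm1, encoding the small lid subunit Sem1, and Pomp, encoding a maturation factor of the core, overlapped between groups with estimates of -0.09 and -0.14. Uchl5, encoding a deubiquitinase that binds the Adrm1 product, was at 28.3 and 29.9 TPM at 1 h, and at 45.8, 33.0 and 51.1 TPM at 8 h. Its estimate was 0.53 ± 0.19 (limma, adjusted p = 0.385), and 0.17 with the series as a term. Uba6, a ubiquitin-activating enzyme gene, averaged 11.9 ± 1.34 TPM (SD, n = 2) at 1 h and 17.5 ± 1.77 TPM (SD, n = 3) at 8 h. Zfand5, encoding a zinc finger protein that stimulates the proteasome, averaged 94.9 ± 11.2 TPM (SD, n = 2) at 1 h and 73.8 ± 2.66 TPM (SD, n = 3) at 8 h. The groups did not overlap for Uchl5, Uba6 or Zfand5, and none of the 3 was called. Over all genes, 23.7% were higher and 9.43% lower in every 8 h library.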

How the data were processed

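RNA was measured in 5 stranded, poly-A selected libraries, 2 taken 1 h and 3 taken 8 h after PBS, and groups were taken from the labels. The authors demultiplexed reads with bcl2fastq 2.19.1.403 and CASAVA per the labels, aligned them to GRCm38 with STAR through nf-core/rnaseq and made the deposited read count table with featureCounts. It holds whole counts without normalization. The authors deposited, beside it, 1 table per library with TPM, FPKM and coverage of every gene, laid out like StringTie output, while tool and version were not given in the sources used here. Neither the deposited coverage nor the deposited FPKM entered a result on these genes. TPM was summed over the 15 to 20 repeat rows per table. No value column was left unassigned (0) and 0 rows lacked a gene.

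The test was limma 3.58.1 (R 4.3.3) with trend on log2(TPM + 1), for genes averaging 1 TPM or more, so fold changes of low genes are understated. Calls needed an adjusted p of 0.05 or less and a log2 fold change beyond 1 in either direction. Counts were tested with edgeR 4.0.16 (TMM, filterByExpr), with DESeq2 1.42.0 and limma-voom as alternatives. Both fits were tested on simulated data with a log2 change of 2 in 200 genes. limma recovered 98.5% of these and edgeR 99.5%. All estimates of the proteasome genes were smaller, and recovery of changes of their size was not tested. Percentages of Psmb5, Psmb6, Psmb7 and Psme2 are ratios of TPM within a library.

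Of 48 genes, 35 had coordinates equal to the GENCODE vM21 annotation, and 8 (Psmb5, Psmb7, Psmc5, Psmd1, Psmd12, Psmd13, Psmd14 and Psmg3) share a same-strand stretch with another annotated gene. Values in every library were given for the highest and lowest gene of each class of 3 or more, the activators, the inhibitor, the immunoproteasome and tissue-restricted genes with their counterparts, and up to 6 genes per direction with the largest estimates. Of the partner list, the 3 largest estimates per direction and Nfe2l1, Nfe2l2, Adrm1, Shfm1 and Pomp were named. Members and lists were chosen with earlier results of these data known. Alternatives were other pseudocounts, filters, scalings and call rules, the identifier series, and leaving out each library in turn.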

Additional observations from a re-analysis of the deposited data

How the results depend on the processing

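No paired analysis was possible because the groups share no replicate number. No gene of the family or the partner list was called under any alternative tried (0 in each). Without 8 h replicate 14 and with no fold change required, limma passed 6 of the 44 family and 7 of the 40 partner genes. That was at an adjusted p of 0.05, beside 19.9% of all genes. Over all genes the refits called between 0 and 568 genes on TPM (568 without 8 h replicate 14) and between 0 and 145 on counts (145 in series 1 alone). Median-ratio scaling shifted the median of all genes by -0.11 (log2). The 44 then split 6 higher and 38 lower with a median of -0.21, beside 6805 higher and 7053 lower of all genes. Rescaling to nuclear genes shifted the median of all genes by -0.05. It gave 9 higher, 35 lower and a median of -0.15, beside 8222 higher and 5778 lower of all genes. The cause of each change was not tested.

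The class sums (log2 ratio of the 8 h to the 1 h mean) within series 1 were 0.085 for alpha, -0.037 for beta, 0.029 for the base ATPases, 0.028 for the other base genes, -0.011 for the lid, -0.054 for the inhibitor and 0.11 for the chaperones. Median-ratio scaling gave -0.18 for alpha, -0.29 for beta, -0.22 for the base ATPases, -0.25 for the other base genes, -0.23 for the lid, -0.084 for the activators and 0.080 for the chaperones. The activators were at -0.022 after rescaling to nuclear genes and at -0.047 as a geometric mean. Leaving out each library in turn gave ranges of -0.15 to 0.01 (alpha), -0.25 to -0.10 (beta), -0.16 to 0.30 (immunoproteasome), -0.20 to -0.05 (base ATPases), -0.24 to -0.06 (other base genes), -0.18 to -0.06 (lid), 0.01 to 0.06 (activators), 0.08 to 0.25 (inhibitor) and 0.17 to 0.24 (chaperones).

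Signs of single log2 fold changes turned as follows. With the series as a term or in series 1 alone, TPM gave Psma2 0.093, Psmb2 0.087, Psmc1 0.027, Psmc2 0.14, Psmd2 0.071, Psme4 0.036, Psme1 -0.26 and Psmf1 -0.050. Counts, whose columns were put in a series by name although the 8 h columns do not match their own TPM tables, gave Psmb2 0.048, Psmb4 0.033, Psmb5 0.084 and 0.083, Psmb6 0.11, Psmb7 0.055, Psmd13 0.033, Psmd4 0.017 and 0.016, Psme1 0.039 and 0.038, Psmg1 -0.064 and -0.065, and Psmg3 -0.25 and -0.24. Median-ratio scaling gave Psmb10 -0.065 and Psme1 -0.094, and rescaling to nuclear genes Psmb10 -0.0044 and Psme1 -0.033. Leaving out each library in turn, TPM ran from -0.10 to 0.073 for Psmb2, -0.16 to 0.25 for Psmb10, -0.23 to 0.067 for Psmd9 and -0.066 to 0.16 for Psme1. Counts ran from -0.16 to 0.033 for Psma2, -0.13 to 0.055 for Psmb2, -0.20 to 0.010 for Psmb6, -0.18 to 0.032 for Psmb7, -0.20 to 0.0011 for Psmc1, -0.20 to 0.046 for Psmc2, -0.17 to 0.019 for Psmd4, -0.074 to 0.017 for Psmd9, -0.11 to 0.0058 for Psmd13, -0.0091 to 0.063 for Psmg1 and -0.068 to 0.21 for Psmg3. On TPM these turns came without 1 h replicate 1 (Psmb10, -0.16), 8 h replicate 13 (Psmb10, -0.032, and Psme1, -0.066), 14 (Psmd9) and 15 (Psmb2, and Psme1, -0.040). On counts they came without 1 h replicate 1 (Psmg1, -0.0063) or the column named 8 h replicate 13 (Psmd9, Psmg1 and Psmg3), and for the other genes without the column named 15. Psmb8, Psmb9 and Psmb11 entered only the fit with no filter on low values, and Psma8, listed at 0, entered none. The count table used here lists none of them, and their coverage in the TPM tables was not used.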
